A study of Mus musculus with 17 samples.

Results

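The genes described here are Myc and 46 factors that build the ribosome, 47 genes in all of the 38293 measured in mouse kidney cortex. They were taken by name and sorted into 8 roles, namely Myc itself, RNA polymerase I and its factors, the box C/D and the box H/ACA small nucleolar ribonucleoproteins (snoRNPs), nucleolin and the nucleophosmins, assembly of the small subunit, assembly of the large subunit, and other nucleolar regulators. The choice was made with earlier results of these data known. Shares of the 47 set beside shares of all genes therefore describe them and are not a test. Each of the 47 was found once in the data, and all 47 passed the filter on low values, which kept 12608 genes.

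The mice were male C57Bl6/J, and the 12 to 14 weeks given as their age refer to the injections described below, before the washout and surgery. Cortex samples of 17 kidneys were profiled by poly(A) RNA-seq, 4 h after bilateral clamping of the renal pedicles for 25 min (ischemia–reperfusion injury, IRI) or after sham surgery. Every mouse carried CCN2 Flox/Flox alleles and the ROSA26CreERT2 transgene, a Cre recombinase that is made in most cells and becomes active on tamoxifen. Mice labelled CCN2 KO received 4 injections of tamoxifen in corn oil and those labelled WT received 4 of corn oil alone, followed by 14 days of washout, so the drug and the deletion cannot be told apart. There were 4 kidneys each of WT sham, of WT IRI and of CCN2 KO sham, and 5 of CCN2 KO IRI.

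Ribosomes are assembled in the nucleolus. RNA polymerase I transcribes the long precursor of ribosomal RNA, snoRNPs guide its methylation and pseudouridylation, and large sets of assembly factors fold, cut and export the small and the large subunit. MYC is a transcription factor that pairs with MAX, binds the E-box CACGTG and is known to activate many of these genes in growing cells. Myc itself is an early-response gene.

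Levels are the deposited log2 RPKM values, which correct for gene length and for the distribution of values in each library. Differences are log2 differences of group means ± SE from limma, and a gene is said to have risen or fallen when its Benjamini-Hochberg adjusted p over the 12608 genes was below 0.05. Ctgf, the gene of CCN2, ranged from 2.65 to 4.26 in WT sham, 3.92 to 5.02 in WT IRI, 2.87 to 3.92 in KO sham and 3.75 to 5.04 in KO IRI. The labelled KO differed from WT by −0.28 in sham kidneys (adjusted p = 0.777) and by −0.35 after IRI (adjusted p = 0.525). Neither passed the test, and whether reads of this gene come from the deleted part is not known here. KO and WT below name the kidneys labelled so. Summed RPKM of 6 proximal tubule markers lay between 3170 and 5430 in all 17 kidneys, as in cortex. Counts per library were not at hand, so the depth is unknown. The p-values set each difference against a spread between kidneys that is taken as common to the 4 groups. Spreads of the groups could differ, as for Myc with an SD of 0.22 in WT IRI and 1.22 in KO IRI.

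Myc was the most strongly induced of the 47 genes. Myc lies on chromosome 15 from 61985391 to 61990374 on the plus strand (GRCm38, GENCODE M21). Its level was 1.58, 1.16, 0.53 and 0.50 in the 4 WT sham kidneys and 5.96, 5.59, 5.91 and 6.10 in the 4 WT IRI kidneys. The groups were far apart, with a difference of 4.95 ± 0.48, which is 30.9-fold (adjusted p = 1.39e-06). In KO sham it was 2.09, 1.62, 2.70 and 2.12, and in KO IRI 4.95, 5.00, 3.92, 5.49 and 2.44. Here the difference was 2.23 ± 0.45 (adjusted p = 0.00198), and KO IRI replicate 5 lay within the range of KO sham.

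**Figure D1:**
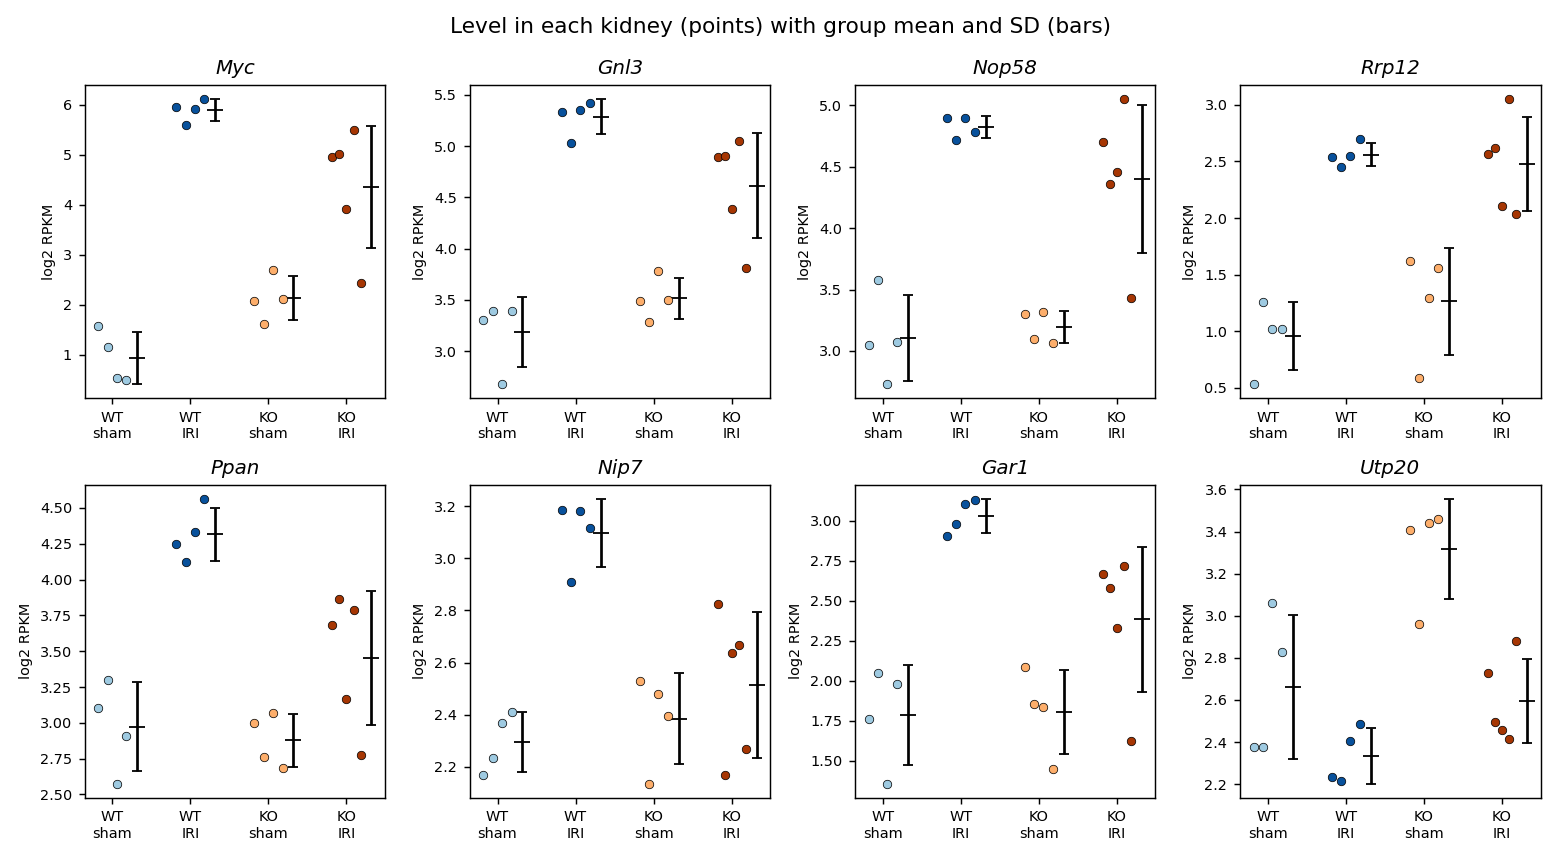
Deposited log2 RPKM (vertical axis) of 8 of the genes in each of 17 kidneys (points), with the mean and SD of the 4 groups (black bars). For Myc the 4 WT IRI kidneys lay between 5.59 and 6.10 and the 5 KO IRI kidneys between 2.44 and 5.49, and each panel has its own axis range.

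IRI raised most of the 47 chosen genes in WT kidneys. In WT IRI against WT sham, 36 of the 47 genes rose, 0 fell and 11 did not pass the test, where 19.5% of all genes tested rose and 20.3% fell. The median difference of the 47 was 0.71, beside −0.05 for all genes tested. In 34 of the 47 every WT IRI kidney was above every WT sham kidney, as in 18.8% of all genes tested. In KO IRI against KO sham 30 rose and 1 fell, beside 14.3% and 13.2% of all genes, with a median of 0.49 beside −0.02. The 30 genes that rose in KO were all among the 36 that rose in WT, which is 100% of the KO list and 83.3% of the WT list. Over all genes tested the 1418 shared genes were 78.8% and 57.7% of the lists of 1800 and 2458.

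**Figure D2:**
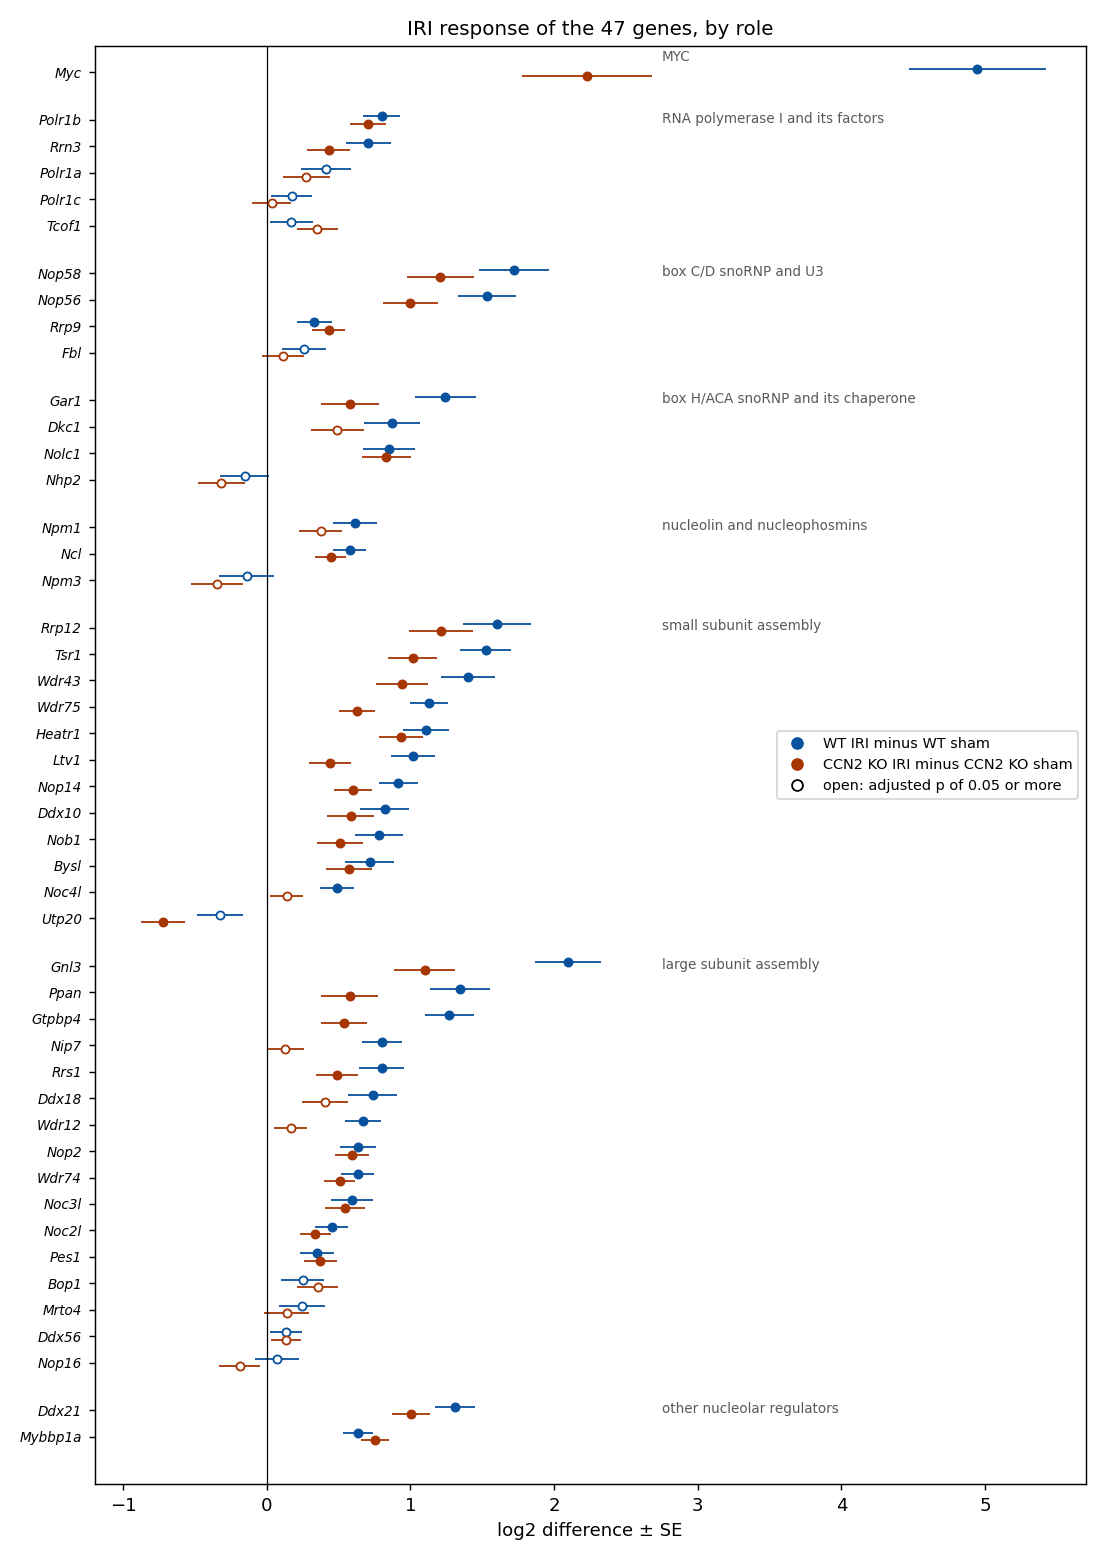
Log2 difference between IRI and sham ± SE (horizontal axis) of the 47 genes, grouped by role, in WT (blue) and in the labelled KO (brown), with open symbols where the adjusted p was 0.05 or more. Most blue points lie to the right of 0 and of the brown ones, with Myc at 4.95 and 2.23 and Utp20 at −0.33 and −0.72.

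Among genes of RNA polymerase I, 2 of 5 rose in each response. Polr1b, the second largest subunit, was at 2.31, 1.81, 2.16 and 1.89 in WT sham and at 2.69, 2.78, 2.84 and 3.06 in WT IRI (0.80 ± 0.13, adjusted p = 0.000172). It was at 2.18, 2.24, 2.08 and 2.20 in KO sham and 3.06, 2.82, 2.73, 3.12 and 2.66 in KO IRI (0.70 ± 0.12, adjusted p = 0.000789). In both labels the sham and IRI kidneys did not overlap. Rrn3, which recruits the polymerase to the ribosomal RNA promoter, rose by 0.71 in WT and by 0.43 in KO, the latter in 9 of 17 alternatives. The largest subunit Polr1a (0.41, adjusted p = 0.0683), Polr1c, a subunit shared with RNA polymerase III (0.17), and the treacle gene Tcof1 (0.17) did not pass the test in WT.

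Of the 4 genes of the box C/D snoRNP, which guides ribose methylation, 3 rose in each response. Nop58 (chromosome 1, 59684971 to 59719044) was at 3.04, 3.58, 2.73 and 3.07 in WT sham and at 4.90, 4.72, 4.90 and 4.79 in WT IRI. It was at 3.30, 3.10, 3.32 and 3.06 in KO sham and at 4.71, 4.36, 4.46, 5.05 and 3.43 in KO IRI. All IRI kidneys were above the sham kidneys of their label, by 1.72 ± 0.25 in WT (adjusted p = 4.93e-05) and 1.21 ± 0.23 in KO (adjusted p = 0.00145). Nop56, its partner, had 1.69, 2.30, 2.24 and 2.15 in WT sham against 3.77, 3.50, 3.56 and 3.69 in WT IRI. KO sham held 2.4, 2.25, 2.34 and 2.17 and KO IRI 3.42, 3.57, 3.03, 3.82 and 2.61. The 2 responses of Nop56 were 1.53 ± 0.20 and 1.0 ± 0.19. Fbl, the methyltransferase fibrillarin of the same particle, had a mean of 3.23 in WT sham and 3.49 in WT IRI and did not pass the test (0.26 ± 0.16, adjusted p = 0.202). Rrp9, a protein of the U3 particle, rose by 0.33 in WT and 0.43 in KO, and its call in WT held in 7 of 16 alternative analyses.

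In the box H/ACA snoRNP, which guides pseudouridylation, 3 of 4 genes rose in WT and 2 in KO. Gar1 (chromosome 3, 129824912 to 129831396) was at 1.76, 2.05, 1.36 and 1.98 in WT sham and 2.90, 2.98, 3.10 and 3.13 in WT IRI, a rise of 1.24 ± 0.21 (adjusted p = 0.000251). In KO sham it was at 2.09, 1.85, 1.84 and 1.45 and in KO IRI at 2.67, 2.58, 2.33, 2.72 and 1.62, where 1 IRI kidney overlapped the sham kidneys (0.58 ± 0.20, adjusted p = 0.0426). That KO call held in 6 of 17 alternatives. Dkc1, the pseudouridine synthase dyskerin, rose by 0.87 in WT and had a difference of 0.49 in KO (adjusted p = 0.0566). Nolc1, a chaperone of the particle, rose by 0.85 and 0.83. Nhp2, a further core protein, had −0.15 and −0.32, and neither passed.

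Nucleolin (Ncl), an abundant nucleolar RNA-binding protein, rose by 0.58 in WT and 0.44 in KO. Npm1, nucleophosmin, went from 5.39, 5.06, 4.90 and 5.12 in WT sham to 5.86, 5.70, 5.56 and 5.82 in WT IRI (0.61 ± 0.16, adjusted p = 0.00491). In KO it went from 5.25, 5.36, 5.46 and 5.40 to 5.83, 5.39, 5.84, 6.24 and 5.40, with overlap and no call (0.37 ± 0.15, adjusted p = 0.0698). Npm3, its smaller relative, had −0.14 and −0.35 and did not pass in either.

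In assembly of the small subunit 11 of 12 genes were higher in WT IRI and 10 in KO IRI. Rrp12, a factor of late processing and export, was at 0.54, 1.26, 1.02 and 1.02 in WT sham and 2.54, 2.45, 2.55 and 2.70 in WT IRI. In KO sham it was at 1.62, 0.59, 1.29 and 1.56 and in KO IRI at 2.57, 2.62, 2.11, 3.05 and 2.04. No IRI kidney overlapped the sham kidneys of its label, and the responses were 1.60 ± 0.24 (adjusted p = 6.41e-05) and 1.21 ± 0.22 (adjusted p = 0.00106). Tsr1, which sits on the late small subunit precursor, was at 2.28, 2.31, 2.25 and 1.99 in WT sham and 3.69, 3.67, 3.68 and 3.89 in WT IRI. KO sham had 2.59, 2.09, 2.52 and 2.54 and KO IRI 3.69, 3.56, 3.21, 3.92 and 2.88 for this gene, again without overlap (1.52 ± 0.18 in WT, 1.02 ± 0.17 in KO). Exons of Tsr1 overlap those of Srr on the other strand, and Srr itself fell in WT IRI (−0.31 ± 0.11, adjusted p = 0.037).

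Wdr75, a WD-repeat protein of the early small subunit particle, was at 1.94, 1.80, 1.63 and 1.75 in WT sham and 2.96, 2.78, 2.80 and 3.09 in WT IRI (1.13 ± 0.13, adjusted p = 8.45e-06). In KO it went from 2.06, 1.86, 1.96 and 1.85 to 2.64, 2.65, 2.4, 2.91 and 2.21 (0.63 ± 0.13, adjusted p = 0.00186), and both steps were free of overlap. Ltv1, another factor of small subunit assembly, went from 3.05, 3.32, 3.34 and 3.28 to 4.43, 4.23, 4.20 and 4.19 in WT (1.02 ± 0.15). In KO its levels were 3.71, 3.36, 3.50 and 3.38 in sham and 3.96, 3.76, 3.96, 4.45 and 3.49 after IRI, with overlap (0.44 ± 0.15, adjusted p = 0.0334), a call that held in 8 of 17 alternatives. Noc4l, a nucleolar complex protein, went from 2.63, 2.25, 2.77 and 2.44 to 3.15, 3.11, 2.89 and 2.90 in WT (0.49 ± 0.12, adjusted p = 0.00402). Its KO levels overlapped, at 2.74, 2.57, 2.60 and 2.56 in sham and 2.97, 2.54, 2.79, 2.83 and 2.65 after IRI (0.14 ± 0.11).

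Of the other small subunit genes, Wdr43 rose by 1.40 in WT and 0.94 in KO, and Heatr1, which works with it in the early particle, by 1.11 and 0.94. Nop14, Ddx10 (a DEAD-box helicase), Nob1 (the endonuclease that makes the mature end of 18S rRNA) and Bysl rose by 0.71 to 0.92 in WT and by 0.51 to 0.60 in KO, where the call of Nob1 held in 11 of 17 alternatives. Utp20, a large scaffold protein of the early particle (chromosome 10, 88746607 to 88826804), was the 1 gene of the 47 that fell in KO and was chosen for description after its values were seen. It was at 2.38, 2.38, 3.06 and 2.83 in WT sham, 2.23, 2.21, 2.4 and 2.48 in WT IRI, 3.41, 2.96, 3.44 and 3.46 in KO sham and 2.73, 2.50, 2.46, 2.41 and 2.88 in KO IRI. Every KO IRI kidney was below every KO sham kidney, a fall of 0.72 ± 0.15 (adjusted p = 0.00265) that held in 17 of 17 alternatives. In WT the difference was −0.33 ± 0.16 (adjusted p = 0.12), and it passed with sample weights (−0.46, adjusted p = 0.0125) and among the kidneys whose sample title begins with 33 (−0.61, adjusted p = 0.00584).

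In assembly of the large subunit 12 of 16 genes rose in WT and 9 in KO. Gnl3, the nucleolar GTPase nucleostemin (chromosome 14, 31012433 to 31019152), led after Myc. It was at 3.30, 3.39, 2.68 and 3.39 in WT sham and 5.34, 5.03, 5.36 and 5.42 in WT IRI, a difference of 2.10 ± 0.23, or 4.28-fold (adjusted p = 3.81e-06). In KO it was at 3.49, 3.29, 3.78 and 3.50 in sham and 4.90, 4.91, 4.38, 5.05 and 3.81 after IRI, which is 1.10 ± 0.22 without overlap (adjusted p = 0.00159). Ppan (chromosome 9, 20888175 to 20892178), a factor of early large subunit processing, was at 3.11, 3.30, 2.58 and 2.91 in WT sham and 4.25, 4.12, 4.33 and 4.56 in WT IRI (1.34 ± 0.21, adjusted p = 0.000116). In KO sham it was at 3.0, 2.76, 3.07 and 2.69 and in KO IRI at 3.68, 3.86, 3.17, 3.79 and 2.77, with 1 overlapping kidney (0.58 ± 0.20, adjusted p = 0.0413), and this call held in 7 of 17 alternatives.

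Gtpbp4, a nucleolar GTPase, was at 3.26, 3.05, 3.44 and 3.31 in WT sham and 4.55, 4.49, 4.49 and 4.62 in WT IRI (1.27 ± 0.17). In KO it was at 3.80, 3.35, 3.75 and 3.64 in sham and 4.42, 4.49, 4.15, 4.30 and 3.50 after IRI, where the last overlapped the sham kidneys (0.54 ± 0.16, adjusted p = 0.0207), and the call held in 13 of 17 alternatives. Nip7, a factor of large subunit maturation (chromosome 8, 107056877 to 107060931), was at 2.17, 2.23, 2.37 and 2.41 in WT sham and 3.19, 2.91, 3.18 and 3.12 in WT IRI (0.80 ± 0.14, adjusted p = 0.000274). In KO it was at 2.53, 2.14, 2.48 and 2.4 in sham and 2.83, 2.17, 2.64, 2.67 and 2.27 after IRI, and the groups overlapped (0.13 ± 0.13, adjusted p = 0.5).

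Pes1, Bop1 and Wdr12 form the PeBoW complex, and their responses were not compared with each other by a test. Wdr12 was at 1.18, 1.39, 1.43 and 1.06 in WT sham and 2.07, 1.92, 1.92 and 1.83 in WT IRI (0.67 ± 0.12, adjusted p = 0.000496). It was at 1.83, 1.52, 1.57 and 1.71 in KO sham and 2.06, 1.87, 1.59, 1.76 and 1.83 in KO IRI (0.16 ± 0.12, adjusted p = 0.323), and every KO sham kidney was above every WT sham kidney. Pes1 rose by 0.35 and 0.37 (in 12 of 16 and 13 of 17 alternatives), and Bop1 had 0.25 and 0.35 without a call. Nop2, an rRNA methyltransferase, Wdr74, Rrs1, Noc2l and Noc3l rose in both labels, by 0.45 to 0.80 in WT and 0.34 to 0.59 in KO, where the call of Noc2l held in 10 and that of Rrs1 in 14 of 17 alternatives. The helicase Ddx18 rose by 0.74 in WT (0.40 in KO, adjusted p = 0.0712). Nop16, Mrto4 and the helicase Ddx56 had differences of 0.07 to 0.25 in WT and did not pass in either label.

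Both other nucleolar regulators rose. Ddx21, a helicase that acts in ribosomal RNA transcription and processing, was at 2.50, 2.85, 2.75 and 2.95 in WT sham and 4.18, 4.02, 3.99 and 4.10 in WT IRI. In KO sham it was at 3.10, 2.81, 3.23 and 3.33 and in KO IRI at 4.25, 4.03, 4.20, 4.39 and 3.75. Its responses were 1.31 ± 0.14 (adjusted p = 3.42e-06) and 1.01 ± 0.13 (adjusted p = 7.98e-05), without overlap in either label. Mybbp1a, a nucleolar MYB-binding protein, rose by 0.64 and 0.75.

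**Figure D3:**
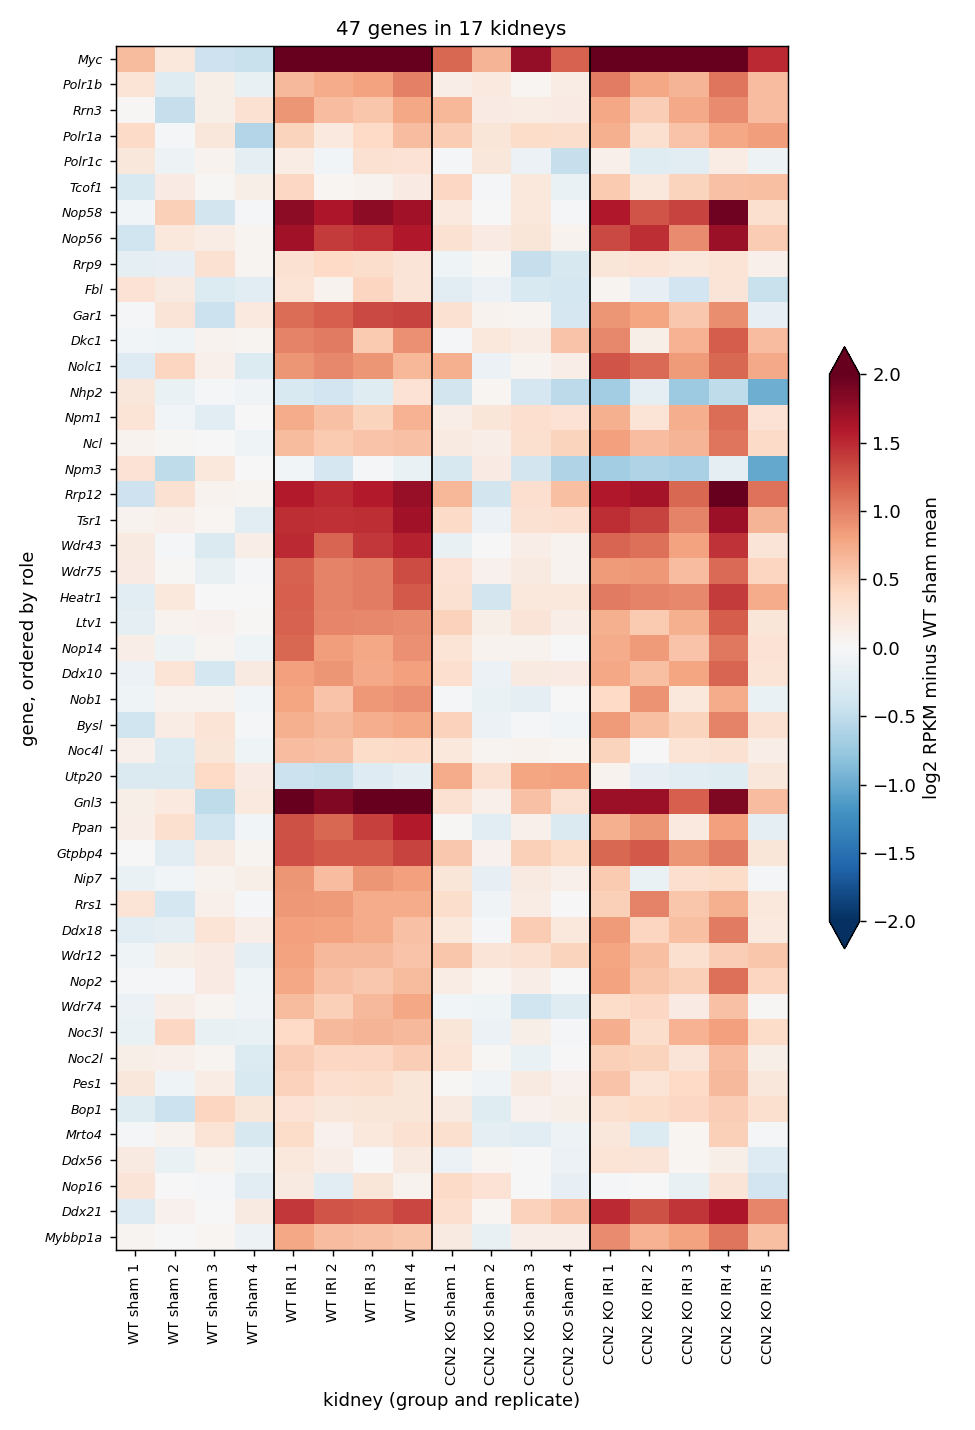
Level of each of the 47 genes (rows, by role) in each of the 17 kidneys (columns) as log2 RPKM minus the gene's WT sham mean, with the color scale ending at −2 and 2, so that larger values share the end color. KO IRI replicate 5 is the palest of the 9 IRI columns, with a median of 0.28 over the 46 genes other than Myc.

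Among the 5 KO IRI kidneys, the same kidney was lowest and another was highest for most of the 47 genes. Replicate 5 was the lowest of its group for 34 of the 47 genes and replicate 4 the highest for 34. Replicate 2 was the lowest for 10 and the highest for 5. How often each kidney was lowest or highest over all genes tested was not counted. Over the 46 genes other than Myc, the median difference from the WT sham mean was 0.63 to 0.78 in the 4 WT IRI kidneys. In KO IRI replicates 1 to 5 it was 0.74, 0.54, 0.56, 0.94 and 0.28. The Myc levels of these 5 kidneys were 4.95, 5.00, 3.92, 5.49 and 2.44, so the kidney with the least Myc also had the smallest median and the one with the most Myc the largest. The other groups did not all show this order. In WT IRI, replicate 2 had the lowest Myc (5.59) and the smallest median (0.63), but Myc was highest in replicate 4 (6.10) and the median in replicate 1 (0.78). In KO sham, Myc was highest in replicate 3 (2.70) and the median in replicate 1 (0.26), and in WT sham replicate 1 had the most Myc (1.58) and a median of −0.02.

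After IRI, 5 genes were lower in the labelled KO than in WT and 0 were higher, where 5.07% of all genes tested were lower and 7.19% higher. The median of the 47 was −0.14, beside 0.02 for all genes. Ppan was lower by 0.86 ± 0.20 (adjusted p = 0.0144) and Nip7 by 0.58 ± 0.13 (adjusted p = 0.0134), in each case with all 5 KO IRI kidneys below all 4 WT IRI kidneys. Myc differed by −1.53 ± 0.45 (adjusted p = 0.0368) and Gar1 by −0.65 ± 0.20 (adjusted p = 0.0467), also without overlap. Gnl3 differed by −0.68 ± 0.22 (adjusted p = 0.0496), with overlap of 1 kidney. All KO IRI kidneys were below all WT IRI kidneys in 4 of the 47 genes, beside 913 of the 12608 genes tested. They were all above in 1 of the 47, Bop1, beside 1270 of the 12608. The call of Nip7 held in 16 of 16 alternatives and that of Ppan in 15, while those of Myc, Gar1 and Gnl3 held in 8, 7 and 6. Without KO IRI replicate 5 the Myc difference was −1.05 (adjusted p = 0.0555) and 2 of the 47 genes were lower. Without KO IRI replicate 4, 11 were lower, without KO IRI replicate 3, WT IRI replicate 1 or WT IRI replicate 3 there were 2, and without WT IRI replicate 4 there was 1. Over these settings the share of all genes that were lower ranged from 1.05% (without WT IRI replicate 4) to 5.05% (without KO IRI replicate 4).

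**Figure D4:**
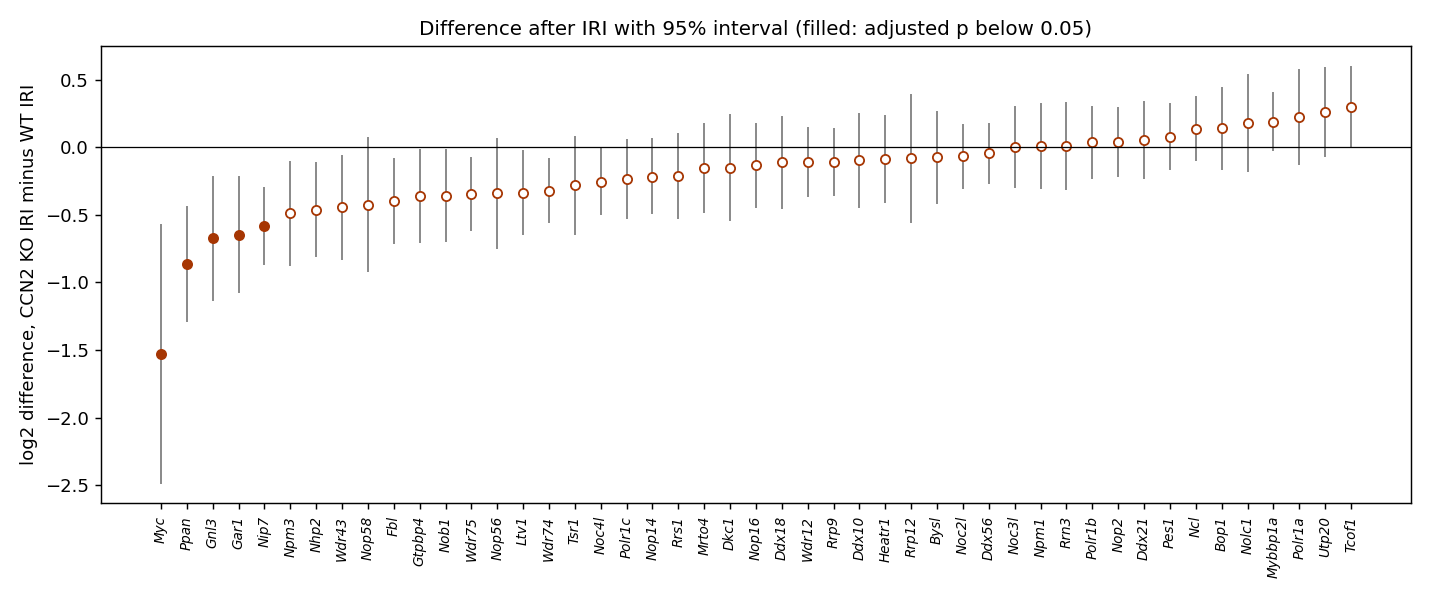
Log2 difference between KO IRI and WT IRI (vertical axis) of the 47 genes in order of size, with the 95% interval of each (gray lines) and filled points where the adjusted p was below 0.05. The 5 filled points are Myc, Ppan, Gnl3, Gar1 and Nip7, and 33 of the 47 estimates are below 0.

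Many of the other 42 intervals allowed a difference of some size. For Rrp12 the interval ran from −0.56 to 0.39, for Nop58 from −0.92 to 0.07, for Nop56 from −0.74 to 0.06, for Tsr1 from −0.64 to 0.08 and for Polr1b from −0.23 to 0.30. Those of Ddx21 (−0.23 to 0.33) and Npm1 (−0.30 to 0.32) were centred near 0. Transcript length moved with this comparison, since the Spearman correlation of exon length with the difference was 0.24 across all genes tested and 0.30 across the 47, where genes of a library are not independent. Its part in the result was not tested.

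Sham kidneys of both labels did not differ past the test for any of the 47 genes (limma, 0 higher and 0 lower). This was so for all genes tested as well, with 0% called in either direction. At an unadjusted p below 0.05 there were 6 of the 47 (12.8%), near the 13.0% of all genes. Of the 47 estimates 37 were above 0 (78.7%, beside 53.7% of all genes), with a median of 0.10 beside 0.02. Myc was the largest, with every KO sham kidney above every WT sham kidney (1.19 ± 0.48, 95% interval 0.18 to 2.19, adjusted p = 0.326). Utp20 had 0.66 ± 0.16 (adjusted p = 0.214), and it alone passed when KO sham replicate 2 was left out (0.77, adjusted p = 0.0468).

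The response to IRI was then compared between labels directly, by the difference of the differences. No gene of the 47 passed (limma, 0 in either direction). Of all genes tested 0.127% were called with a more positive difference in KO than in WT and 0.0555% with a more negative one. At an unadjusted p below 0.05 there were 10 of the 47 (21.3%), beside 14.9% of all genes. In 42 of 47 the difference of the differences was below 0, with a median of −0.26 beside 0.01 for all genes. These were not all smaller rises. Utp20 (−0.33 in WT and −0.72 in KO), Nhp2 (−0.15 and −0.32) and Npm3 (−0.14 and −0.35) were below 0 in both labels and further so in KO. Nop16 had 0.07 and −0.19. The differences largest in size were those of Myc (−2.72 ± 0.66, adjusted p = 0.0981), Gnl3 (−1.0 ± 0.31, adjusted p = 0.154), Ppan (−0.77 ± 0.29), Gtpbp4 (−0.73 ± 0.23) and Nip7 (−0.67 ± 0.19, adjusted p = 0.122). Myc passed with sample weights (−3.02, adjusted p = 0.0206) and without KO IRI replicate 5 (−2.24, adjusted p = 0.0386). Sample titles began with 33 in all IRI kidneys and in 2 of 4 kidneys of each sham group, the others with 32, and what this number stands for was not given. Among those with 33 alone the Myc value was −3.42 (adjusted p = 0.161).

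Other genes of the same pathways were taken from lists of related genes. Of 41 other large subunit factors 27 rose and 1 fell in WT IRI (median 0.53), led by Urb2 (1.57), Rrp15 (1.49) and Eif6 (1.40), the last of which keeps the new large subunit from joining the small one. Of 38 other small subunit factors 17 rose and 0 fell (median 0.32), led by Mphosph10 (1.54), a U3 particle protein, and Riok1 (1.36), an atypical kinase. Among 16 further genes of RNA polymerase I machinery 3 rose (18.8%, near the 19.5% of all genes), which were the polymerase subunits Twistnb (1.0) and Cd3eap (0.95) and the initiation factor Taf1d (0.71). In 12 other snoRNP proteins 4 rose and 1 fell, led by the assembly factors Znhit6 (1.13) and Naf1 (1.02). In KO IRI against KO sham the same lists had 21 and 0, 12 and 0, 2 and 3, and 1 and 2 genes higher and lower. The shares higher were 51.2%, 31.6%, 12.5% and 8.33%, beside 14.3% of all genes. For the RNA polymerase I and snoRNP lists the shares lower were 18.8% and 16.7%, beside 13.2% of all genes.

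Of 78 genes of the cytosolic ribosomal proteins 2 rose and 1 fell in WT IRI (2.56% and 1.28%), with a median of −0.07. Rpl10a was among those higher (0.66) and Rpl35a was lower (−0.45). In KO IRI 0 rose and 12 fell (15.4%, beside 13.2% of all genes), with a median of −0.21. Against WT IRI 6 were lower (7.69%, beside 5.07%), with a median of −0.26. Exon length again moved with these, with a Spearman correlation of 0.27 across all genes for KO IRI minus KO sham and 0.10 for WT. In the RNA exosome, which trims ribosomal RNA precursors, 2 of 13 rose in WT IRI, the cofactor Mphosph6 (1.17) and the nuclease Dis3 (1.14), and 2 fell, Exosc5 (−0.50) and Exosc4 (−0.48), so that 15.4% moved in each direction.

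**Figure D5:**
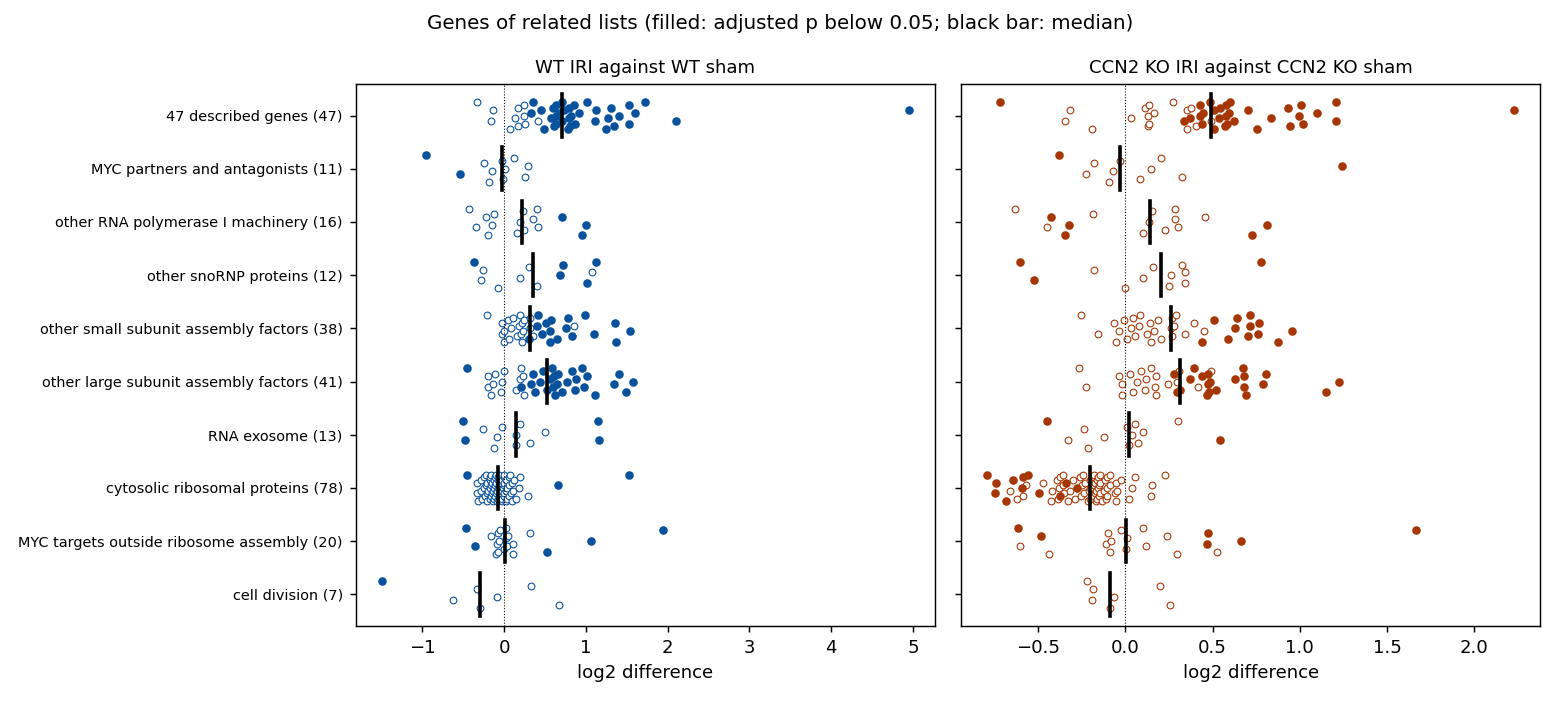
Log2 difference between IRI and sham (horizontal axis) of the 47 genes and of 9 related lists, with the number of genes tested in parentheses, in WT (left) and in the labelled KO (right). Points are genes, filled where the adjusted p was below 0.05, and black bars are medians, which were 0.71 and 0.49 for the 47 genes and −0.07 and −0.21 for the 78 ribosomal protein genes.

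Of 11 tested genes of the MAX network 0 rose and 2 fell in WT IRI (18.2% lower, near the 20.3% of all genes), namely Mlxipl (−0.95), the glucose-responsive factor ChREBP, and Mxd4 (−0.54), a MYC antagonist. Max, the obligate partner, had 0.29 ± 0.12 (adjusted p = 0.0621) in WT and 0.08 in KO. Mycn, the paralog of Myc, had means of −0.42 in WT sham and −0.42 in WT IRI, near an RPKM of 1. In KO it rose from a range of −1.08 to −0.76 to one of −0.24 to 0.65 (1.24 ± 0.26, adjusted p = 0.00253). No KO sham kidney was above the filter level of log2 0. Mycn thus passed the filter only through other groups, among them KO IRI, where its mean was highest. The filter favors such a rise, so the call is given as a description. Mycl, the other paralog, was below the filter with group means of −0.98 to −0.12. Of 20 known MYC targets outside ribosome assembly 3 rose and 2 fell in WT IRI (15% and 10%, both below the shares of all genes), with a median of 0.01. In KO IRI against KO sham 4 rose and 2 fell (20% and 10%, beside 14.3% and 13.2% of all genes). Those that rose in WT IRI were Ctps (1.94), which makes CTP, Srm (1.07), which makes spermidine, and Hspd1 (0.53), a mitochondrial chaperonin. Those that fell in WT IRI were Phb (−0.46), which encodes prohibitin, and Cdk4 (−0.36), a cell cycle kinase. Of 7 tested cell division genes 0 rose and Mcm3 fell (−1.49), and 5 others of that list, Mki67, Top2a, Cdk1, Ccnb1 and Aurkb, were below the filter.

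Cell type markers shifted as well. The summed RPKM of 10 leukocyte markers was 11.7 to 18.6 in WT sham and 24.3 to 29.1 in WT IRI, and 12.8 to 16.0 in KO sham and 22.8 to 51.9 in KO IRI. In WT, 3 of the 5 markers tested rose, S100a8, S100a9 and Cd68, while Ptprc (−0.18) and Lyz2 (−0.59) did not pass. Ly6g, which defines neutrophils, was at the lowest value of the table in every kidney outside KO IRI. The 5 endothelial markers summed to 20 to 35.7 in WT sham, 10.4 to 25.3 in WT IRI, 26.8 to 38.5 in KO sham and 26 to 34.9 in KO IRI. The 5 fibroblast and pericyte markers summed to 12.2 to 23.4, 5.33 to 13.1, 12.3 to 23.9 and 16.0 to 28.5 in the same order. In KO IRI against WT IRI, 3 of 5 of each list were higher, as were all 3 loop of Henle markers (median 1.09), beside 7.19% of all genes tested. Of 4 collecting duct markers 1 was lower, beside 5.07% of all genes. Their summed RPKM was 267 to 324 in WT IRI and 126 to 279 in KO IRI. The loop of Henle markers summed to 265 to 459 in WT sham, 185 to 399 in WT IRI, 221 to 917 in KO sham and 545 to 1100 in KO IRI. In KO sham against WT sham all 3 had estimates above 0 (median 0.50), and none passed the test. None of the endothelial or fibroblast and pericyte markers was at the lowest value in all kidneys of a group. The part of these cells in the results was not tested. In whole cortex, fewer cells of a type and less RNA per cell cannot be told apart.

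Features outside the expression values were looked up for the 47 genes. They lie on 19 chromosomes. Of the 47, 8 contain snoRNA genes on the same strand (17%, beside 3.01% of the tested genes), which are Nop56, Nop58, Dkc1, Ncl, Wdr43, Tsr1, Ppan and Gnl3, with 23 snoRNA genes in all. All 8 were among the 36 genes that rose in WT, which are 76.6% of the 47. A link between hosting a snoRNA and rising was not tested. The snoRNAs themselves were not measured by poly(A) selection. Exons of 18 of the 47 overlap a gene on the other strand, and the strand setting of the counting is not given in the sources used here. Median exon length was 3912 bases for the 36 genes that rose and 2611 for the 11 that did not pass, beside 4121 for all tested genes, and the Spearman correlation of length with the WT difference was 0.31 across the 47.

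Promoters were searched for the E-box because MYC with MAX is known to bind it. The RefSeq table (GRCm38.p6, from 250 bases before to 50 after the start) held 40 of the 47 genes. CACGTG, which reads the same on both strands, was present in 8 of the 40 (20%), beside 12.1% of 9094 tested genes and 8.09% of all 27025 genes in the table. The related CACGCG on either strand was in 14 of the 40 (35%), beside 19.9% and 10.5%. Of the 8 genes with CACGTG, namely Ltv1, Mybbp1a, Nop2, Pes1, Rrn3, Tsr1, Utp20 and Wdr43, 7 rose in WT IRI, where 32 of all 40 genes in the table rose. Of the 14 genes with CACGCG, Ddx56, Nhp2, Nop16 and Polr1c did not pass the test in WT IRI and the others rose. Example windows before the start are shown only from genes that rose in WT IRI, with the motif in capitals. Nop2 and Rrn3 carry CACGTG there, and Nip7, Gtpbp4, Nolc1 and Bysl carry CACGCG or its reverse complement CGCGTG. So do Mybbp1a and Pes1, which rose, and Ddx56 and Polr1c, which did not pass, and their windows are not shown.
Nop2, chr6:125131811-125131840, plus strand: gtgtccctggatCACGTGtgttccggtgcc
Rrn3 far site, chr16:13780472-13780501, plus strand: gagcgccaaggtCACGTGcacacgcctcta
Rrn3 near site, chr16:13780639-13780668, plus strand: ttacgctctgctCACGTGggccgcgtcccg
Nip7, chr8:107056824-107056853, plus strand: aggctagagagaCACGCGttcgtggacccc
Gtpbp4, chr13:8996137-8996166, minus strand: tgtctaggcggaCGCGTGggccacgcctcg
Nolc1, chr19:46075810-46075839, plus strand: gcaggatgatgaCGCGTGtgggaccggaag
Bysl, chr17:47611604-47611633, minus strand: actccagaccttCACGCGaacggcggcccc
The motif begins 60 bases before the start in Nop2, 215 and 48 in Rrn3, 41 in Nip7, 142 in Gtpbp4, 25 in Nolc1 and 129 in Bysl. A match describes the letters in this window and is not a measured binding site.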

How the data were processed

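Kidney cortex RNA of 17 samples was compared. The authors aligned single-end reads to GRCm38 with STAR 2.4.2a, assigned them to genes by HTSeq-count 0.6.1p1 (union), computed RPKM with edgeR and deposited quantile-normalized log2 values (log2 RPKM). The strand setting and annotation are not given in the sources used here. Values stop at −3.32 (0.1 RPKM). Of 30 sample columns 17 match labelled samples, and 13 were not used.

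Genes with more than log2 0 in at least 4 kidneys were kept. One limma 3.58.1 model (R 4.3.3) with 4 group means and a variance trend was fitted to all 17 kidneys, since counts, which the test of the study needs, were not at hand, and p was adjusted by Benjamini-Hochberg over 12608 genes at a threshold of 0.05. The test was checked on simulated data in which genes were independent and each had the same spread in all groups. That check does not cover correlated genes or groups of unequal spread. No 2 kidneys held the same values, and correlations were 0.915 to 0.961 within and 0.856 to 0.953 between groups. Values are given per kidney for Myc, for the gene with the largest WT response in each role and for the 12 lowest p in the difference of responses, and 2 to 4 leading genes are named per list, with Utp20 added after its values were seen. Replicates are numbered in accession order. Members and lists were chosen with earlier results of these data known. Positions come from GENCODE M21 and promoters from RefSeq. Alternatives covered the filter, pseudocount, centring, variance trend, sample weights, samples fitted, number at the start of the title and leaving out each kidney. One gene of the ribosomal protein list is not reported here by name.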

Additional observations from a re-analysis of the deposited data

Results flagged for a closer look

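In 4 of 68 groups examined, 1 kidney lay far from the others of its group, where chance gives about 1 in 20. Ltv1 was 4.43 in WT IRI replicate 1, with the other WT IRI kidneys at 4.19 to 4.23. Tsr1 was 3.89 in WT IRI replicate 4, with the nearest kidney at 3.69, and 2.09 in CCN2 KO sham replicate 2, with the nearest at 2.52. Gnl3 was 2.68 in WT sham replicate 3, with the nearest at 3.30.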

How the results depend on the processing

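The count of genes called in WT IRI against WT sham (36) was 34 to 37 with 1 kidney left out and 35 to 38 under the other settings, and that in KO IRI against KO sham (31) was 21 to 33 and 24 to 35. The lowest, 21, came without KO sham replicate 2. The count in KO IRI against WT IRI (5) was 2 without a filter, 2 without a variance trend, 2 in a fit to both groups only and 11 with sample weights, where 10.8% of all genes were lower. With 1 kidney left out it ranged from 1 to 11, the lowest without WT IRI replicate 4 (1) and the highest without KO IRI replicate 4 (11), and it was 2 without WT IRI replicate 1, WT IRI replicate 3, KO IRI replicate 3 or KO IRI replicate 5. The cause was not tested. In sham kidneys the count of 0 ranged from 0 to 1. For the difference of responses the count of 0 became 1 with sample weights and ranged from 0 to 1 with 1 kidney left out. No difference of a called gene or of Myc turned its direction. No paired analysis was possible because the replicate numbers only name kidneys in accession order and the labels pair no mice across groups. Counts were not at hand, so depth and counting error could not be given, and genes near an RPKM of 1 are the least certain.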
